A study of Panax notoginseng with 2 samples.

Results

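Intronless reference genes are genes whose annotated model is 1 unbroken exon. Such genes were examined in 2 RNA sequencing libraries from roots of Panax notoginseng, a ginseng species used as a medicinal plant. Plants behind the cadmium library had received the heavy metal cadmium at 5 µM, and the control library came from roots of untreated plants. Both sets of plants were grown in the field, per the labels, and neither age, cultivar nor number of plants per library was given in the sources used here. A gene was included when the deposited class code marked its transcript as identical to a reference gene, when its listed exon spanned the whole locus, and when it was 500 bases or longer. These criteria use annotation and length and no difference between the libraries, and they selected 12743 of 147111 loci. A class code of this kind depends on an assembly of sequencing reads, so membership is not wholly independent of the level of a gene.

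In plants, genes without introns include many members of large families, such as the small auxin-up RNA genes that respond early to auxin, many AP2/ERF transcription factors, core histones and most pentatricopeptide-repeat proteins, which process organelle RNA. Genes without introns are often short and are often found beside related copies in the genome. Cadmium binds thiol groups, and plants answer it with sulphur-rich chelators, transporters and stress transcription factors. The files pair the loci with reference identifiers and with no gene name, so no family or function is assigned to any gene here, and no marker of root or of another tissue could be checked.

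The 12743 genes lay on 9454 scaffolds and contigs of the authors' assembly, 10565 of them on scaffolds and 2178 on contigs. They were split evenly between strands, with 6471 on the plus and 6272 on the minus strand. Every one carried its own reference identifier and a coding-sequence identifier. Their median length was 681 bases (quartiles 588 and 846), and the longest had 9916 bases. A length that is a multiple of 3 was found for 12458 of them (97.8%), so most of these models are coding lengths without untranslated regions. The nearest other locus lay a median of 3528 bases away. Another locus was within 1000 bases of 2781 genes, 7 of which overlapped it, and 1569 genes were the only locus on their scaffold or contig.

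Most intronless reference genes were not seen in either library. The control library listed 2316 genes (18.2%) above 0 FPKM (fragments per kilobase of transcript, relative to all fragments of the library) and the cadmium library 1790 (14.0%), and 10269 genes were listed at 0 in both. For comparison, spliced reference loci were those of 500 bases or more whose listed exon did not span the whole locus. They were above 0 in 19.1% (control) and 10.9% (cadmium) of cases. Over all loci it was 28.5% and 23.8%. At least 1 FPKM was reached by 1377 genes in control roots and by 1049 under cadmium. At the high end, 113 control and 53 cadmium values reached 100 FPKM, and 8 and 5 reached 1000 FPKM. All levels and differences below come from 1 library per group, so they are unreplicated. No test was made on them, and whether a difference belongs to cadmium or to the plants and preparations at hand cannot be told apart.

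For these genes the number of fragments behind each FPKM value could be read back. FPKM values of a 1-exon gene are whole multiples of a step set by its length and the library, and 99.6% of the values above 0 in either library gave a whole number of fragments to within 0.05. Per kilobase, 1 FPKM rested on 19.8 control fragments but on 11.9 cadmium fragments. The control was thus counted 1.67-fold more deeply, although the authors' software may have scaled the values. The genes held 918822 control and 375791 cadmium fragments. The median gene above 0 had 35 control or 19 cadmium fragments. A single fragment stood behind 226 control and 219 cadmium values, and 100 fragments or more behind 808 and 376. Intervals on ratios in the following are exact 95% intervals (Clopper-Pearson) that cover counting error only. Those on shares are of the same kind but over genes, which they treat as independent. They too leave out the spread between plants.

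A few genes held most of the fragments, more so in the cadmium library. The 10 genes with the most fragments held 27.3% of the control and 50.3% of the cadmium fragments, and the top 100 held 61.2% and 77.0%. The genes together summed to 68421 FPKM in control roots and 46368 under cadmium. Of the sum over all loci this was 2.95% and 3.02%, nearly equal, and of the sum over loci of 500 bases or more it was 6.36% and 3.86%. The direction of the share thus depends on whether shorter loci are counted in the total. Without the 3 highest genes in cadmium, the sums were 68084 and 25880.

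The study's comparison asks which transcripts of the root differ between cadmium and control. The difference was measured as log2((cadmium FPKM + 1)/(control FPKM + 1)), called the log2 ratio here, which understates the change of low genes. A gene was counted as higher or lower in cadmium when this ratio reached 1 or -1, provided that 1 of the libraries had 1 FPKM or more. Of 1531 intronless reference genes that reached 1 FPKM, 782 (51.1%) were lower in the cadmium library, 197 (12.9%) were higher and 552 were neither. Over all 33904 loci that reached 1 FPKM the same rule counted 28.6% as lower and 20.6% as higher. The share of lower genes was therefore above this background and the share of higher genes below it. The median log2 ratio was -1.03 (quartiles -2.29 and 0.21), against -0.07 over all loci. Of the lower genes 185 were listed at 0 in cadmium, and of the higher genes 26 were listed at 0 in the control. Over all loci, 4044 of 9700 lower loci were at 0 in cadmium and 1328 of 6986 higher loci at 0 in the control. Unequal zeros were thus not particular to the intronless genes.

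**Figure D1:**
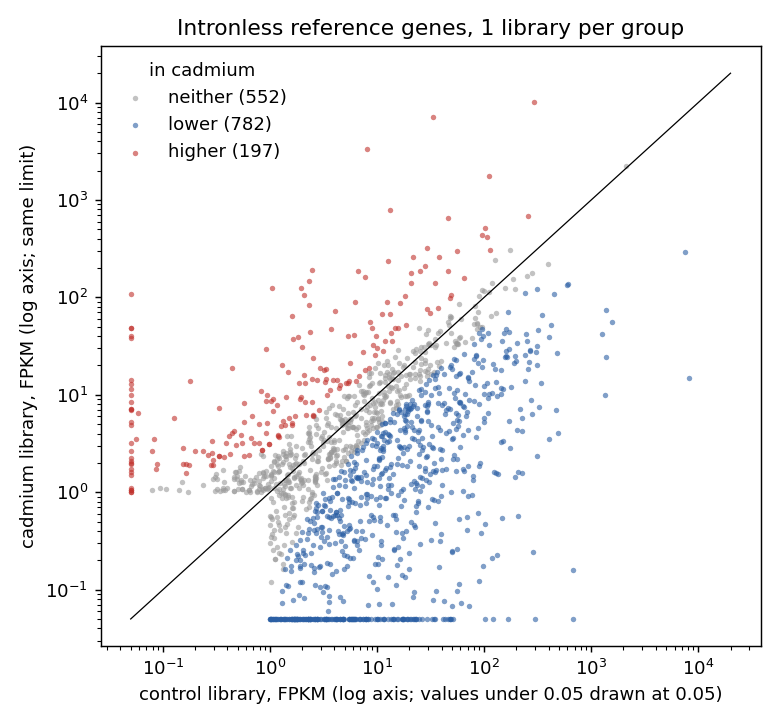
FPKM of the 1531 intronless reference genes with at least 1 FPKM in 1 library, in the control library (horizontal, log axis) and the cadmium library (vertical, log axis), 1 point per gene, with values under 0.05 drawn at 0.05. The 782 genes lower in cadmium (blue) lie below the line of equal values, the 197 higher ones (red) above it, and the row of points at the bottom holds lower genes listed at or near 0 in cadmium.

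With a 4-fold rule 452 genes (29.5%) were lower and 86 (5.62%) higher, where all loci gave 14.1% and 7.86%. A log2 ratio of at least 8-fold size was reached by 257 genes lower (16.8%) and 42 higher (2.74%) in cadmium, where all loci gave 7.68% and 3.6%. At 32-fold there were 66 lower (4.31%) and 14 higher (0.91%), against 2.52% and 1.02% of all loci. Among 1621 genes with whole fragment numbers above 0 in both libraries, the counting interval of the ratio lay wholly below equality for 787 genes, wholly above it for 306 and included it for 528. The whole interval lay beyond a 4-fold difference for 338 genes on the lower and 84 on the higher side. Fragment numbers were recovered for intronless reference genes only, so no share over all loci can be set beside these counts. Being above 0 in both libraries also depends in part on the change, and the intervals leave out the spread between plants. Strand and assembly piece made little difference, with 50.7% of plus-strand and 51.4% of minus-strand genes lower, and 50.9% on scaffolds against 52.3% on contigs.

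Spliced reference loci of 500 bases or more gave nearly the same shares lower and higher but differed in where these came from. They were taken as loci with the same class code whose listed exon did not span the whole locus. Introns were not checked, so a 1-exon gene inside a wider locus span would be counted among them. The length of a locus with introns is its span on the scaffold, introns included. Of 6628 spliced reference loci at 1 FPKM, 49.6% were lower and 13.6% higher, with a median of -0.98. Among those lower, 1687 of 3288 were listed at 0 in cadmium, against 185 of 782 intronless genes. With loci above 0 in both libraries alone, 45.2% of 1320 intronless genes and 33.5% of 4783 spliced loci were lower, with medians of -0.80 and -0.43. Unstranded intergenic loci of the same minimum length went the other way: of 1919, 30.3% were higher and 20.2% lower, and the median was 0.32. Intronless reference genes under 500 bases leaned lower more strongly. Of 1628 at 1 FPKM, 69.0% were lower and 13.8% higher, with a median of -1.56. Among their 1124 lower genes, 865 were listed at 0 in cadmium. The lower lean and the smaller part of zeros are thus not shared alike by all intronless genes. With 1 library per group none of these differences between classes could be tested, and being above 0 in both libraries depends in part on the change itself.

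From 1 FPKM upwards the lower median deepened with the level of the gene. Genes were grouped by their mean FPKM over the 2 libraries. At a mean over 1 and up to 3 FPKM the median log2 ratio of 398 genes was -0.65. It was -0.99 for 406 genes up to 10 FPKM, -1.38 for 303 genes up to 30, -1.78 for 181 genes up to 100 and -2.54 for 88 genes above that. Spliced reference loci ran in the opposite order, from -1.26 at 1 to 3 FPKM to -0.31 above 100 FPKM, and all loci stood between -0.17 and 0.04 over the same 5 groups. The group with a mean of up to 1 FPKM stood outside this order, with a median of -0.72 for 155 intronless genes, near the -0.83 of all loci there. It holds genes that reached 1 FPKM in 1 library although their mean did not, which leaves out genes with like values in both. A pseudocount shrinks the ratio of low genes, but the plain log2 ratio of genes above 0 in both libraries ran in the same order, from -0.60 at 1 to 3 FPKM to -2.47 above 100 FPKM, and was 0.42 for the 94 such genes up to 1 FPKM. For spliced loci the plain ratio ran from -0.83 to -0.27.

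**Figure D2:**
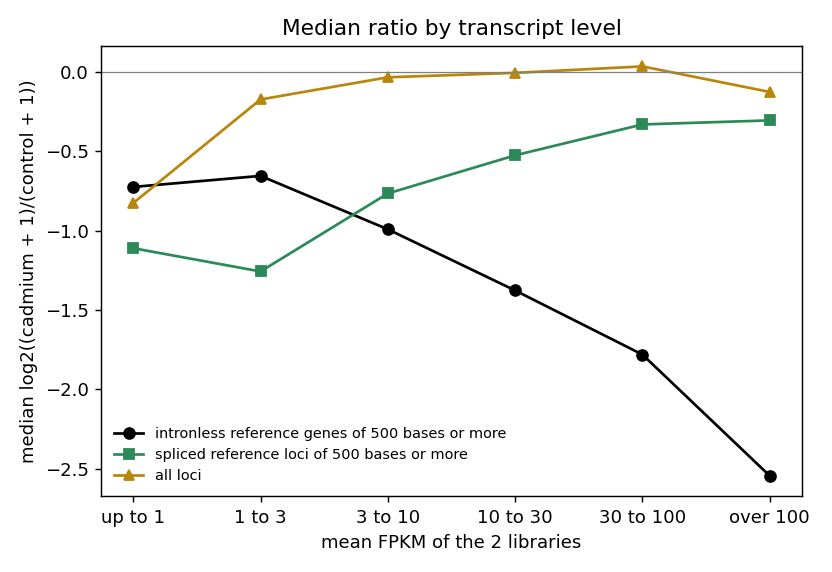
Median log2 ratio (vertical; below 0 means lower in cadmium) in groups of loci by the mean FPKM of the 2 libraries (horizontal). The line of intronless reference genes starts at -0.72 up to 1 FPKM, stands at -0.65 from 1 to 3 FPKM and ends at -2.54 above 100 FPKM, that of spliced reference loci rises from -1.26 at 1 to 3 FPKM to -0.31, and that of all loci stays between -0.13 and 0.04 from 3 FPKM on.

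Of 142 genes with at least 100 FPKM in 1 library, 93 were lower (65.5%), 33 higher (23.2%) and 16 neither, and their log2 ratios had a median of -2.75. Over all loci at that limit 38.1% were lower and 31.5% higher, with a median of -0.20. A gene selected for a high value in 1 library is more likely to differ, so these counts are a description. At 100 FPKM or more in both libraries stood 24 genes, and of these 6 were lower (25%), 6 higher (25%) and 12 neither, with a median of -0.12. Over all loci at 100 FPKM in both, 12.8% were lower and 18.8% higher. Both shares of the 24 genes were above those of all loci. A limit on both libraries leaves out genes that were far lower in either, so these counts too are a description.

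Length also ordered the genes. Among 214 genes of 500 to under 600 bases at 1 FPKM, 61.2% were lower and 12.6% higher, at a median of -1.45. The share lower stayed between 53.0% and 62.4% in all length groups up to 1500 bases. It was 34.5% for 171 genes of 1500 to under 2000 bases, 24.8% for 137 genes of 2000 to under 3000 bases and 16.7% for 42 genes of 3000 bases or more. The last group had 7 lower and 7 higher genes and a median of 0.01. The share of higher genes changed less, between 10.1% and 17.2%. All loci showed an order of the same kind, from 46.9% lower at 500 to under 600 bases through 43.4% at 1200 to under 1500 and 31.5% at 2000 to under 3000 bases to 17.4% at 3000 bases or more. From 1500 bases on the intronless genes were near or below the share of all loci listed at that length, which was 36.5% from 1500 to under 2000 bases. For loci with introns the listed length is the span on the scaffold, introns included. The length groups of all loci therefore do not hold transcripts of like length.

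Detection followed length too. In the control library 10.1% of 3564 genes of 500 to under 600 bases and 7.57% of 2458 genes of 700 to under 800 bases were above 0. The share was 26.8% from 800 to under 1000 bases, 47.6% from 1200 to under 1500 bases and 64.9% from 2000 to under 3000 bases. The cadmium library was below the control in each of these groups, at 5.75%, 5.49%, 19.7%, 42.1% and 59.1%. At 3000 bases and more both libraries listed 57.4% above 0. The length limit cut through a continuous range: of 2563 intronless reference genes of 450 to under 500 bases 152 reached 1 FPKM, with 87 lower and 25 higher, and of 2019 genes of 500 to under 550 bases 113 did, with 69 lower and 12 higher.

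**Figure D3:**
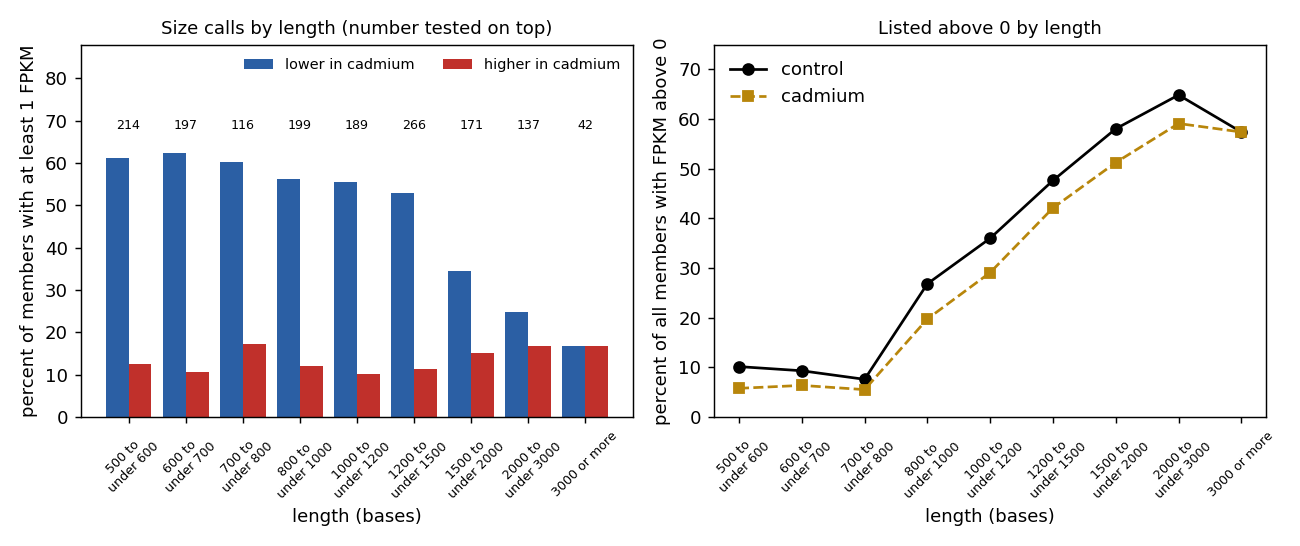
Left, the percent of intronless reference genes at 1 FPKM or more that were lower (blue) or higher (red) in cadmium, by length in bases, with the number tested above each pair of bars. Right, the percent of all these genes listed above 0 in the control (circles) and the cadmium library (squares), which is lower for genes under 800 bases, while the share lower in cadmium reaches 16.7% at 3000 bases or more.

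Level and length were then crossed. In genes under 1000 bases the median log2 ratio went from -1.17 at a mean of up to 3 FPKM to -2.00 above 30 FPKM, over 248 and 156 genes. In genes of 1000 to under 1500 bases it went from -0.91 to -2.31, over 144 and 86 genes. In longer genes it was 0.14 for 161 genes up to 3 FPKM, -0.42 for 96 genes up to 10, -1.25 for 66 genes up to 30 and -0.90 for 27 genes above that. The balance of the long genes was thus found at low levels, and at a mean of 10 to 30 FPKM 35 of the 66 long genes were lower and 6 higher.

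A smaller group of 285 genes had lengths that were not a multiple of 3, and these stood apart. They were above 0 in the control in 50.2% of cases, against 17.4% of genes whose length was a multiple of 3. Of the 99 at 1 FPKM, 15 were lower, 17 were higher and the median was -0.03, while the 1432 others had 767 lower, 180 higher and a median of -1.11. The 99 were mostly long, with 54 at 2000 bases or more, where 7 were lower and 10 higher. Of all 285, 137 were under 1000 bases, where 17.5% were above 0 in the control, against 11.1% of genes with a multiple of 3. From 2000 bases on 93.2% of 73 were, against 56.6%. The order by length was also found without the 285 genes: the share lower was 60.4% under 1000 bases, 55.5% from 1000 to under 1500, 37.7% from 1500 to under 2000 and 27.2% from 2000 bases on.

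Zeros were unequal between the libraries at matched levels. Of 1220 genes with at least 29 control fragments, 114 (9.34%, interval 7.77 to 11.1) were listed at 0 in cadmium. At the matching 17 cadmium fragments, 17 of 928 genes (1.83%, interval 1.07 to 2.92) were listed at 0 in the control. The gap was wide at every depth except the deepest. With 11 to 28 control fragments 27.2% were at 0 in cadmium (interval 22.4 to 32.4), and with the matching 6 to 16 cadmium fragments 3.96% were at 0 in the control (interval 2.06 to 6.82). With 251 control fragments or more it was 5.01% of 499 genes (interval 3.27 to 7.31), and with 150 cadmium fragments or more 2.52% of 278 genes (interval 1.02 to 5.12), so these intervals overlapped. Short genes were listed at 0 in cadmium more often, 13.9% of 509 under 1000 bases (interval 11.1 to 17.3) against 4.13% of 315 from 1500 bases on (interval 2.22 to 6.95). The intervals here are over genes of 1 library pair and do not measure the spread between libraries. Fragment numbers were recovered for these genes only, so no share over all loci can be set beside these shares. Whether fragments were absent at such a 0 or the estimate had failed was not tested.

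**Figure D4:**
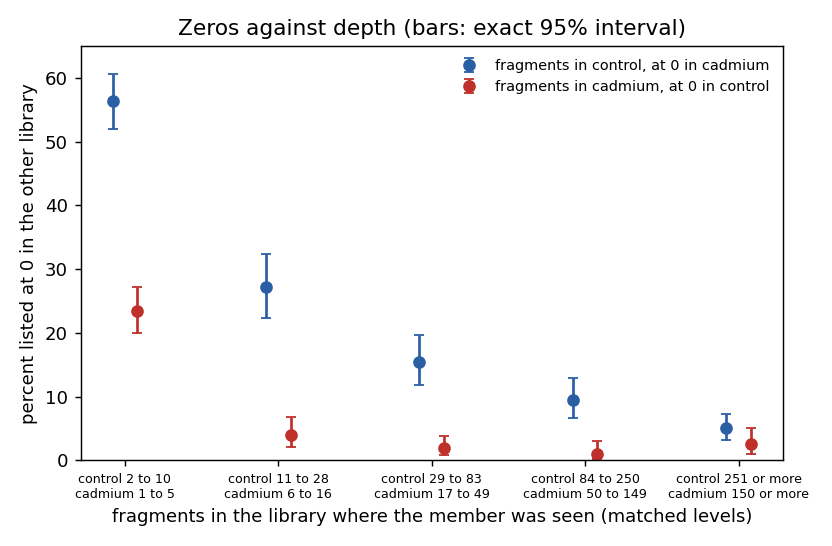
Percent of intronless reference genes listed at 0 in 1 library (vertical), by the number of fragments in the other library (horizontal, 5 groups at matched levels). Bars are exact 95% intervals over genes. Genes seen in the control (blue) were at 0 in cadmium in 27.2% of cases at 11 to 28 control fragments and in 5.01% at 251 or more, and genes seen in cadmium (red) were at 0 in the control in 3.96% and 2.52% at the matching depths.

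Genes are named in the following by position, 1-based on the authors' scaffolds and contigs, from the 720 that reached 10 FPKM in 1 library. In that set 447 were lower (62.1%) and 103 higher (14.3%) in cadmium, against 27.7% and 22.2% of all loci at that limit. The largest ratios on the higher side belonged to 2 genes of almost equal length. XLOC_053950 (scaffold17497, 16449 to 17237, plus strand, 789 bases) had 8.02 FPKM in control roots and 3300 under cadmium, from 93 and 22796 fragments. It was 412-fold higher in cadmium (interval 336 to 510). XLOC_018789 (contig C4969449, 106849 to 107643, plus strand, 795 bases) stood at 33.4 and 7114 FPKM, from 392 and 49643 fragments, and was 213-fold higher (interval 193 to 235).

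The next genes on the higher side were 52-fold to 118-fold higher and ranged from 615 to 1569 bases. The gene on scaffold25776 from 46877 to 47608 had 1.05 control FPKM, from 11 fragments, and 124 cadmium FPKM, 118-fold higher (interval 65.6 to 237). The most abundant of these was on scaffold11562 from 7505 to 8431, with 13.3 control and 795 cadmium FPKM, and a ratio interval of 51.9 to 69.6. A gene on scaffold10590 from 6142 to 6756 had 2.45 control and 190 cadmium FPKM, 77.4-fold higher. The remaining 3, on scaffold29754 from 12487 to 13104, scaffold5492 from 39321 to 40817 and scaffold6924 from 6929 to 8497, were 63.1-fold, 63.8-fold and 51.6-fold higher. All 8 were below 35 FPKM in the control and above 100 FPKM in the cadmium library.

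On the lower side the ratios were larger still. XLOC_008760 (contig C4919741, 7454 to 9238, minus strand, 1785 bases) had 682 control FPKM and 0.16 cadmium FPKM, from 21396 and 3 fragments, a 4267-fold difference (interval 1460 to 20693). Its neighbour on the contig, from 1639 to 5734, stood at 3.64 and 2.29 FPKM. XLOC_098051 (scaffold31164, 29624 to 30124, plus strand, 501 bases), the highest gene of the control library, stood at 8167 and 14.9 FPKM, from 48102 and 52 fragments, 547-fold lower in cadmium (interval 417 to 732). Being 1 base above the length limit, it is among the shortest genes included.

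The other 6 of the 8 lowest ratios were 122-fold to 1159-fold lower. The gene on scaffold23062 from 10673 to 11911 had 283 control and 0.245 cadmium FPKM, 1159-fold lower (interval 396 to 5620). Genes on scaffold407 from 153669 to 154316, scaffold14790 from 15592 to 16917 and scaffold395 from 361912 to 363309 stood at 207, 131 and 119 control FPKM and at 0.57, 0.23 and 0.21 cadmium FPKM. These 4 genes rested on 3 cadmium fragments each, which leaves their ratios known only within wide intervals. The last 2 had more, with 27 cadmium fragments on scaffold720 from 140158 to 140931 (490 and 4.01 FPKM) and 9 on scaffold2945 from 169662 to 171257 (145 and 0.55 FPKM). At the control level, these 6 genes would have had between 1084 and 3476 cadmium fragments.

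The most abundant genes overall were 3 that were higher in cadmium, 2 that were lower and 1 that differed little. The highest FPKM of any intronless reference gene, 10074, was reached in cadmium on scaffold17497 from 11407 to 12192, where the control stood at 295 FPKM, 34.1-fold lower (interval 33.0 to 35.3). XLOC_053950 and XLOC_018789, given above, were the others on the higher side. Next to XLOC_098051, the second on the lower side was on scaffold30291 from 31043 to 31768, with 7473 control and 292 cadmium FPKM, from 77357 and 1797 fragments, 25.6-fold lower (interval 24.4 to 26.8). The exception was on contig C4920525 from 17674 to 18192, where the FPKM values were 2108 (control) and 2251 (cadmium). Its ratio was 1.07 (interval 1.04 to 1.10).

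Among genes of at least 100 FPKM in both libraries, 3 more stood nearest to equality. They were on scaffold16503 from 21131 to 21691 (111 and 112 FPKM), on scaffold2464 from 19966 to 22260 (100.1 and 116 FPKM) and on contig C4915945 from 5026 to 6102 (119 and 142 FPKM). Their cadmium to control ratios were 1.01 (interval 0.90 to 1.14), 1.16 (1.10 to 1.21) and 1.19 (1.11 to 1.28). Counting error alone therefore covers equality for the first of them and not for the others.

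Some abundant genes were listed at 0 in 1 library. Of the 720 genes reaching 10 FPKM, 47 were at 0 in cadmium and 8 at 0 in the control. Zeros over all loci at that limit are not given here. The highest control value among the 47 was 673 FPKM, from 8287 fragments, on contig C4900413 from 6917 to 7741. At an equal level 4936 cadmium fragments would have been counted there. It was followed by genes on scaffold9669 from 12700 to 13290 (300.4 FPKM), scaffold25048 from 47690 to 48448 (168 FPKM) and scaffold10832 from 3606 to 4634 (120 FPKM). In the other direction the highest was on scaffold15838 from 48154 to 49284, at 108 FPKM in cadmium from 1188 fragments and at 0 in the control. Genes on scaffold6171 from 60621 to 61355, contig C4933553 from 23903 to 24700 and scaffold19313 from 36756 to 37478 followed at 48.8, 48.0 and 39.9 FPKM in cadmium. A single fragment in these 8 genes would have given between 0.054 and 0.22 FPKM in the library where they were at 0.

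The longest genes at 1 FPKM were low and leaned towards cadmium. The gene on scaffold7980 from 192840 to 202755, of 9916 bases, had 0.79 control and 3.22 cadmium FPKM, 4.08-fold higher (interval 3.37 to 4.96). Genes of 8339 bases on scaffold15750 from 59330 to 67668 and of 7983 bases on scaffold22800 from 121592 to 129574 stood at 0.32 and 1.53 FPKM and at 0.86 and 2.37 FPKM. Their plain ratios were 4.84 (interval 3.50 to 6.79) and 2.77 (2.22 to 3.46), but with the pseudocount both missed the 2-fold rule, at log2 ratios of 0.94 and 0.86.

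Neighbouring intronless genes often differed in the same direction. In 965 places 2 or more of them followed each other with no other locus between, 2081 genes in all, and the longest such run had 7. In 55 pairs of direct neighbours both genes reached 1 FPKM, and in 43 pairs (78.2%) both log2 ratios were on the same side of 0. Many pairs would share a side in any case, since 70.7% of all 1531 genes had a ratio below 0. That is a share of single genes and not of pairs, so the 2 percentages are not alike. No share or count of pairs for neighbouring loci in general is given here. Both genes were counted as changed in 31 pairs, with 22 pairs lower together, 5 higher together and 4 opposite. On the same strand 1 of 23 such pairs was opposite, and on opposite strands 3 of 8 were. If such neighbours are near-identical copies, reads shared between them cannot be told apart from separate changes.

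The 3 runs in which every gene was counted as changed and which were longest or highest in FPKM were on scaffold33448, scaffold17497 and scaffold10258. On scaffold33448 the run of 3 held both directions. The gene from 66479 to 67054 (plus strand) had 29.3 control and 75.2 cadmium FPKM, and those from 68858 to 69568 and from 79543 to 80172 (both minus strand) stood at 1375 and 24.6 FPKM and at 127 and 18.3 FPKM. The 2 lower genes were 55.9-fold (interval 47.6 to 66.3) and 6.95-fold (interval 5.61 to 8.70) lower. Of the 4 other loci of that scaffold at 1 FPKM 2 were lower as well. On scaffold17497 the genes of 10074 and 3300 cadmium FPKM given above lie 4256 bases apart on opposite strands. The 4 other loci of that scaffold at 1 FPKM were all listed with the same span, from 17730 to 23259. Of these overlapping entries 3 were higher and 1 lower, with a median log2 ratio of 5.02. The rise was thus also listed outside the intronless genes there, but over a single span. On scaffold10258 a gene from 105359 to 105982 stood at 45.6 and 656 FPKM, and its neighbour from 107372 to 108139 on the other strand at 4.02 FPKM and at 0.

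Further scaffolds were chosen after their values were seen, as the 4 with the most intronless genes at 1 FPKM, together with scaffold25048, which holds a gene named above. On scaffold13063 all 6 such genes were lower in cadmium, with a median log2 ratio of -4.19. The first, from 57454 to 58608, had 173 control and 2.84 cadmium FPKM, 60.8-fold lower (interval 43.0 to 89.0). Those from 115074 to 116183 and from 121004 to 122227 stood at 59.8 and 2.89 FPKM and at 92.0 and 1.99 FPKM, and that from 140578 to 141291 stood at 20.4 FPKM and at 0. The genes from 61106 to 61774 and from 350764 to 352821 were 24.7-fold and 11.5-fold lower. The 33 other loci of this scaffold at 1 FPKM went both ways, with 9 lower, 7 higher and a median of -0.37.

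On scaffold36037, 4 of 5 intronless genes were lower. The highest, from 63546 to 64979, stood at 241 and 25.6 FPKM, 9.43-fold lower (interval 8.49 to 10.5), and the 3 others on its strand were 3.50-fold, 4.52-fold and 7.13-fold lower. The only one on the plus strand, from 32668 to 34005, stood at 85.0 and 55.1 FPKM, 1.54-fold lower, which did not reach the 2-fold rule. The 3 other loci of that scaffold at 1 FPKM leaned the same way, with 2 lower and a median log2 ratio of -1.99, against -1.71 for the intronless genes.

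The other two scaffolds with 4 such genes were less uniform. On scaffold16173 the gene from 96268 to 98448 was lower, at 10.6 and 2.68 FPKM, 3.93-fold (interval 3.01 to 5.21), and the others missed the 2-fold rule, with a median over the 4 of -0.30. The last in order, from 118150 to 121230, leaned the other way, with 12.6 control and 20.2 cadmium FPKM. The 9 other loci of scaffold16173 at 1 FPKM had 3 lower, 2 higher and a median of -0.54. On scaffold30604, 3 genes were lower and 1 higher. The gene from 179653 to 181332 stood at 22.4 FPKM and at 0, and the higher one, from 63535 to 65475, at 0.087 and 1.94 FPKM, from 3 and 40 fragments. The 11 other loci of scaffold30604 had 4 lower, 2 higher and a median of -0.06.

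On scaffold25048 the gene from 39303 to 39812 stood at 1268 and 42.1 FPKM, 30.1-fold lower (interval 25.6 to 35.6), 1 short intronless gene before the one at 168 FPKM and 0. The 2 shorter intronless genes beside them, from 42181 to 42624 and from 52479 to 52919, were lower as well, at 20.4 FPKM and 0 and at 4428 and 0.36 FPKM. The 4 loci of that scaffold whose listed exon did not span the locus came before them and were divided. The first 2 stood at log2 ratios of 0.08 and 0.51. The next 2, from 27368 to 28549 and from 29926 to 35054, were lower at -1.71 and -1.31. In all, 4 of the 6 other loci of scaffold25048 were lower, with a median of -1.51.

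**Figure D5:**
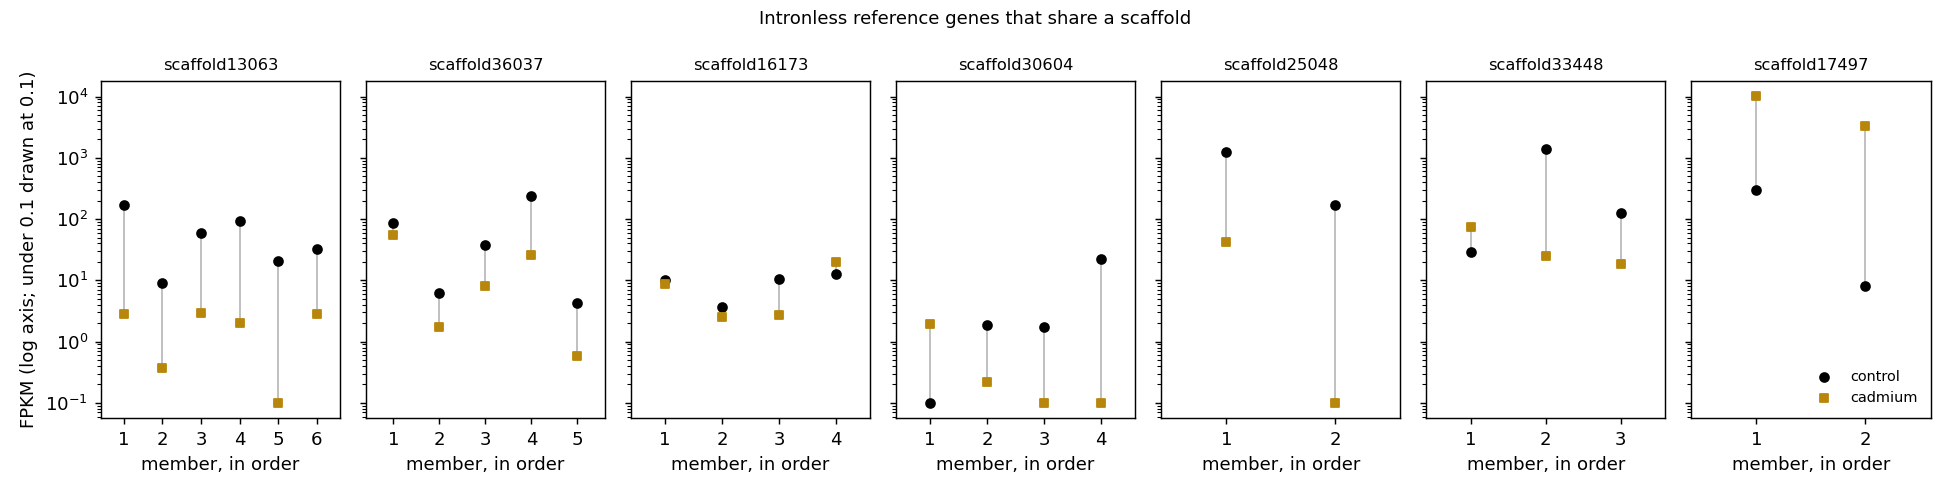
FPKM (vertical, log axis, values under 0.1 drawn at 0.1) of intronless reference genes at 1 FPKM or more on 7 scaffolds, in their order along the scaffold (horizontal), with circles for the control and squares for the cadmium library. The cadmium values lie below the control values for every gene on scaffold13063, scaffold36037 and scaffold25048 and above them for both genes on scaffold17497, and the genes of scaffold16173, scaffold30604 and scaffold33448 lie on both sides.

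Isolation of the gene went with the counts. The 378 genes at 1 FPKM with another locus within 1000 bases, not overlapping, had 166 lower (43.9%) and a median log2 ratio of -0.76. The 1057 genes with other loci only farther away had 562 lower (53.2%) and a median of -1.11. Genes that were alone on their scaffold or contig were seen least often, with 8.60% of 1569 above 0 in the control, and of the 89 at 1 FPKM 54 were lower (60.7%). The 7 genes overlapping another locus were all above 0 in both libraries, and 4 of them were higher and none lower, with a median log2 ratio of 1.12. They had a median length of 3968 bases, against 702, 678 and 708 in the other groups in the order given. Those groups also differed in level, with median control values of 4.42, 7.15 and 9.15 FPKM at 1 FPKM or more. Shares over all loci in the same distance groups are not given here, and isolation was not tested apart from length and level.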

How the data were processed

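Root RNA from 1 cadmium and 1 control library was analysed. The authors deposited FPKM values per locus, with TopHat2 2.0.13, Cufflinks 2.2.1 and Cuffnorm 2.2.1 listed in the submitters' processing notes, without settings. Genome build, read numbers and strand specificity: not given in the sources used here. Libraries may have been scaled to each other in that software. Locus and exon positions came from the deposited tables. In a partial exon file all 286 genes of the set it covers had 1 transcript of 1 exon. A sequence of these scaffolds was not used here.

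Fragment numbers were recovered from FPKM by fitting the step of 1-exon genes under 3000 bases, with 204 (control) and 208 (cadmium) bases lost per gene. A value counted as whole within 0.05. The calculations were tested on simulated data. Sizes were counted with a pseudocount of 1 FPKM, a minimum of 1 FPKM and a fold of 2. Named genes had at least 10 FPKM in 1 library: the 8 highest and 8 lowest ratios with whole fragment numbers in both, the 6 highest FPKM, the 4 highest listed at 0 in the other library in each direction and the 4 nearest equality at 100 FPKM in both; the 3 longest at 1 FPKM were added, and at most 2 identifiers are printed each way. The members, the lists and the alternatives were chosen with earlier results of these data known. The splits by level, by length and by multiples of 3 were chosen after seeing the data. Scripts ran in Python 3.11.15 with scipy 1.17.1, pandas 2.3.3 and numpy 2.4.6, and figures were drawn with matplotlib 3.10.9.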

Additional observations from a re-analysis of the deposited data

How the results depend on the processing

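No paired analysis was possible because there was 1 library per group, and leaving out a library would have ended the comparison. More intronless genes were lower than higher under every alternative tried. Counts moved by over 1.5 times with a pseudocount of 5 FPKM (109 higher, 477 lower), a fold of 4 (86 and 452, or 5.62% and 29.5%, against 7.86% and 14.1% of all loci), lengths from 1000 bases (105 and 346) and, both chosen after seeing the data, lengths from 1500 bases (56 and 100) and at least 10 FPKM (103 and 447). The median log2 ratio of -1.03 was -1.34 with a pseudocount of 0.1 FPKM, -0.46 with 5, 0 without a filter, where most genes are at 0 in both libraries, -1.47 at 5 FPKM, -1.77 at 10 FPKM, -0.72 from 1000 bases, -0.22 from 1500 bases, -1.14 with no other locus within 1000 bases and -0.80 above 0 in both libraries. The median of all tested loci was also set to 0 (a log2 shift of 0.08), or their upper quartiles were set equal (0.15). With equal upper quartiles the median of the intronless genes was -0.94. Both settings left that median within its interval over the genes, -1.13 to -0.93. The interval treats the genes of 1 library pair as independent and leaves out the spread between libraries. It therefore does not show how certain the median is. The share at 0 in cadmium of 9.34% was 6.90% from 50 cadmium fragments, 11.5% from 10 and 6.05% from 1000 bases. Fewer genes were tested under the limits on length and FPKM, and why other values moved was not tested. A further 32 values stayed within their limits. For the 25 named genes with a counting interval, 35 of 100 log2 ratios under another pseudocount or scaling moved out of an interval of that width around the value given. The 8 named genes at 0 in 1 library have no such interval, and 24 of their 32 ratios differed from the value given. The direction changed in 0 of all these ratios. Depth limits genes with few fragments, and counting intervals leave out the spread between plants.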
